A study of Mus musculus with 6 samples.

Results

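Superficial cells were examined here in single-cell transcriptomes of mouse esophageal organoids. The cells were chosen by a score, the mean deposited value of the 8 genes Sprr2f, Tspan1, Duoxa2, AA467197, 2300002M23Rik, Psca, Gm9573 and Prss22. Of 26808 barcodes, 25154 had at least 500 detected genes, and 2627 of these were left out as mitotic because at least 2 of Top2a, Mki67, Birc5 and Ube2c were detected. The 2253 cells at or above the 90th percentile of the score among the remaining 22527 scored cells are called superficial. The organoids came from C57BL6 mice. Live basal cells, positive for integrin-b1 and negative for DAPI, were sorted into Cyto-ID Low and Cyto-ID High founders and grown for 15 days in Matrigel. Cyto-ID is a dye for autophagic vesicles, so the design asks whether the vesicle content of a founder cell was followed by a difference in the cells of its organoid. Each group had 3 libraries, labelled F2, M3 and F6. The labels do not say what these letters stand for or whether the libraries came from separate animals, so p-values measure only the spread between libraries, which may be technical. The organoids hold what grew from sorted basal cells, without the immune cells and stroma of the tissue.

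The esophageal lining is a stratified squamous epithelium. Basal cells divide, their daughters leave the basal layer and switch on keratins such as Krt13 and Krt4, and the flattened cells at the surface seal the lumen before they are shed. Surface cells of such epithelia make small proline-rich (Sprr) proteins that are cross-linked under the membrane, membrane mucins, secreted antimicrobial proteins and, through the dual oxidases, hydrogen peroxide. Among the genes of the score, Sprr2f encodes a small proline-rich protein and Psca a Ly6-type surface protein held by a lipid anchor. Duoxa2 is the maturation factor of the oxidase Duox2, Tspan1 is a tetraspanin, Prss22 is a serine protease, and Gm9573 is listed in RefSeq with the synonym Muc21, a membrane mucin. RefSeq gives AA467197 the synonym Nmes1, and 2300002M23Rik the synonym Stg.

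Promoter windows are shown because the genes of the score were high together and because Sprr genes are textbook targets of AP-1, a factor that reads the letters TGANTCA. RefSeq (GRCm38.p6) held a window for 6 of the 8 genes, running from 250 bases before the start to 50 after it. The AP-1 letters, which read the same on both strands, were in 3 of the 6 windows and in 7.81% of all 32851 windows. The 250 bases before the start are printed 5′ to 3′ on the gene's strand for these 3 genes and for Sprr2d, the Sprr2 gene outside the score with the largest log2 ratio of superficial to other cells, taken as described below. Capitals mark the AP-1 letters.
Sprr2f, chr3:92364937-92365186, plus strand: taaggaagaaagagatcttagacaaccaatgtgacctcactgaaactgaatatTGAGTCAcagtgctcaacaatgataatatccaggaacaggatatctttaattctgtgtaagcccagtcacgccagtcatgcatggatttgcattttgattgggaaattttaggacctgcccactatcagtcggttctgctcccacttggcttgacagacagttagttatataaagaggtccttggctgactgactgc
Sprr2d, chr3:92338890-92339139, plus strand: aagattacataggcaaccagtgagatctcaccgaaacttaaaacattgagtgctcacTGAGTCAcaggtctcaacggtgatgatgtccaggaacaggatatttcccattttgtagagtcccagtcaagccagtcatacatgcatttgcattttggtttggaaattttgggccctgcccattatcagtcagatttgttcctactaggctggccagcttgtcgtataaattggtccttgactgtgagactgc
Duoxa2, chr2:122298650-122298899, plus strand: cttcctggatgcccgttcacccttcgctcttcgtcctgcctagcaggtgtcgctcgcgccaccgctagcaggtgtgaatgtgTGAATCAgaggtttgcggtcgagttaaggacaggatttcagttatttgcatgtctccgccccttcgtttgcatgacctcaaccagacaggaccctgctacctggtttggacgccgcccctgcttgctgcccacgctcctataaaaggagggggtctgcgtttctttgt
AA467197, chr2:122637637-122637886, plus strand: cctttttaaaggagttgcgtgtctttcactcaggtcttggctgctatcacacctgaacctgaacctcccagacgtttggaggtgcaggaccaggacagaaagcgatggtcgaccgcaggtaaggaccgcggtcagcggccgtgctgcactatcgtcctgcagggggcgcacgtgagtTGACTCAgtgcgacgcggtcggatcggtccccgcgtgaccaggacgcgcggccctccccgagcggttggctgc

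The match began 197 bases before the start in Sprr2f, 193 before it in Sprr2d, 168 in Duoxa2 and 73 in AA467197. Sprr2f and Sprr2d carried the same 7 letters, TGAGTCA. A match describes these letters and does not show that a factor binds there, and the motif was picked after the genes were known. In the genome Duoxa2 lies beside Duox2 with 159 bases between them and opposite strands. The genes 2300002M23Rik and Gm9573 are neighbours on chromosome 17, 49.0 kb apart, with no protein-coding gene between them in RefSeq. The 8 genes of the score therefore lie at more than 1 locus, on chromosomes 2, 3, 4, 15 and 17.

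The score is a range without a gap at the cut-off. Its median was 0.231 in scored cells and 2.54 in superficial cells on the deposited natural log scale, the cut-off was 1.89, and the highest cell reached 4.20. Within 0.1 of the cut-off, 197 cells lay inside and 193 outside. Cells so near the cut-off have close mean levels of these genes by construction. Psca averaged 6.16 just inside and 6.03 just outside, and Sprr2f 1.56 and 1.29. Gm9573 (0.408 and 0.424) and Prss22 (0.718 and 0.787) went the other way, and the other genes of the score were higher inside. No test is given for any gene against the other cells, because the cells were chosen by their own values.

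One library stood apart. Cyto-ID High F6 held 80 superficial cells with a median of 1660 UMIs (unique molecular identifiers, that is, counted molecules), while the other libraries held 284 to 749 superficial cells with medians of 3999.5 to 9570.5. Fth1 was also lowest there. The share of cells, the counts over all genes and the list counts it changes are given with and without it, as are ranges of a gene's level whose end it moves by over 1.5 times. Of 26723 different barcode sequences, 85 occurred in more than 1 library, and 18 superficial cells carried one of these. Levels below are CPM, counts scaled to a common total, averaged over the cells of a library, and a log2 ratio of superficial to other scored cells was taken per library with 10 CPM added to both and averaged over the 6 libraries.

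Psca took the largest share of UMIs among the 8 genes. It reached 59221 CPM in superficial cells of Cyto-ID Low F2, 74510 in Low M3 and 145123 in Low F6, and 56102, 128208 and 63798 in Cyto-ID High F2, M3 and F6. In the other scored cells it was between 2303 and 11089 CPM. The log2 ratio was 4.23 ± 0.37 (SD, n = 6). Low F6 and High M3 had the most Psca, and the Cyto-ID groups overlapped. In the median superficial cell, Psca took 5.12% to 15.4% of all UMIs, depending on the library.

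Sprr2f reached 11886, 6968 and 6403 CPM in Cyto-ID Low F2, M3 and F6 and 6855, 2956 and 3076 in Cyto-ID High F2, M3 and F6, against 42.0 to 186 in other scored cells. Its log2 ratio was 5.99 ± 0.39 (SD, n = 6). Tspan1 ranged from 402 (767 without High F6) to 1525 CPM and had a ratio of 5.54. Duoxa2 ranged from 243 (391 without High F6) to 917 CPM, against at most 12.6 in other scored cells, and had a ratio of 5.13. AA467197 ranged from 3903 to 9320 CPM, 2300002M23Rik from 1198 to 3138, Gm9573 from 195 to 993 (471 without High F6) and Prss22 from 294 to 829.

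With each gene of the score left out in turn, between 2049 and 2182 of the cells picked by the other 7 were also among the 2253. This describes the rule, since the 8 genes were chosen as high together in these data. As a measure of free RNA in the droplets, the 8 genes were read in the 10% of scored cells highest in basal markers (Krt5, Krt14, Krt15, Trp63, Col17a1 and Itgb4). Of these 2253 cells, 5 were superficial and were left out, which keeps the values low by construction. In the rest each gene was at most 1.24% of its level in superficial cells. In High F6 the genes of the score other than Sprr2f were at 0 there, so free RNA could not be measured in that library. The median superficial cell had 5 to 7 of the 8 genes detected, and all 8 were detected in 3.75% (High F6; 8.11% without it) to 27.2% (Low F2).

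Within the superficial cells of a library, the median correlation over the 28 pairs of these genes was 0.013 to 0.112. Picking cells by the mean of the 8 genes lowers such correlations by construction, and the cells share a library and its depth, so nothing is read from these values.

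A few genes took a large share of UMIs in superficial cells, also when the 8 genes of the score were set aside. Among UMIs of all other genes, the 10 most abundant genes of a cell took 23.4% to 35.8% in the median superficial cell and 10.9% to 14.9% in the median other scored cell. Fth1 and Gsto1 together took 9.5% (16.5% without High F6) to 23.4% of them, against 0.379% to 0.762%. After each cell was thinned to 1000 UMIs, superficial cells had a median of 398.5 to 467 detected genes and other scored cells 485 to 581, lower in 6 of 6 libraries, where UMIs of the score's genes were kept. Mitochondrial UMIs were also lower in 6 of 6, 0.399% to 1.06% against 1.63% to 2.66%. The median of all 11848 measured genes stood at -0.31 on the log2 ratio, and other genes are best read against that value. With TMM factors fitted over superficial and other cells, which are meant to correct for large shares of a few genes, the median was -0.09. The part of these shares in the shift was not tested.

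Of 11848 genes, 180 (1.52%) were at least 2-fold higher in superficial than in other scored cells in 6 of 6 libraries, and 719 (6.07%) at least 2-fold lower. With TMM factors the split turned to 380 higher and 250 lower, of which 175 and 249 were shared with the first counts. Without Cyto-ID High F6 the counts were 192 and 908. The percentages are the background for each gene list below in plain CPM over 6 libraries. For list counts with TMM factors or without High F6, the background is the matching count over all genes.

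**Figure D1:**
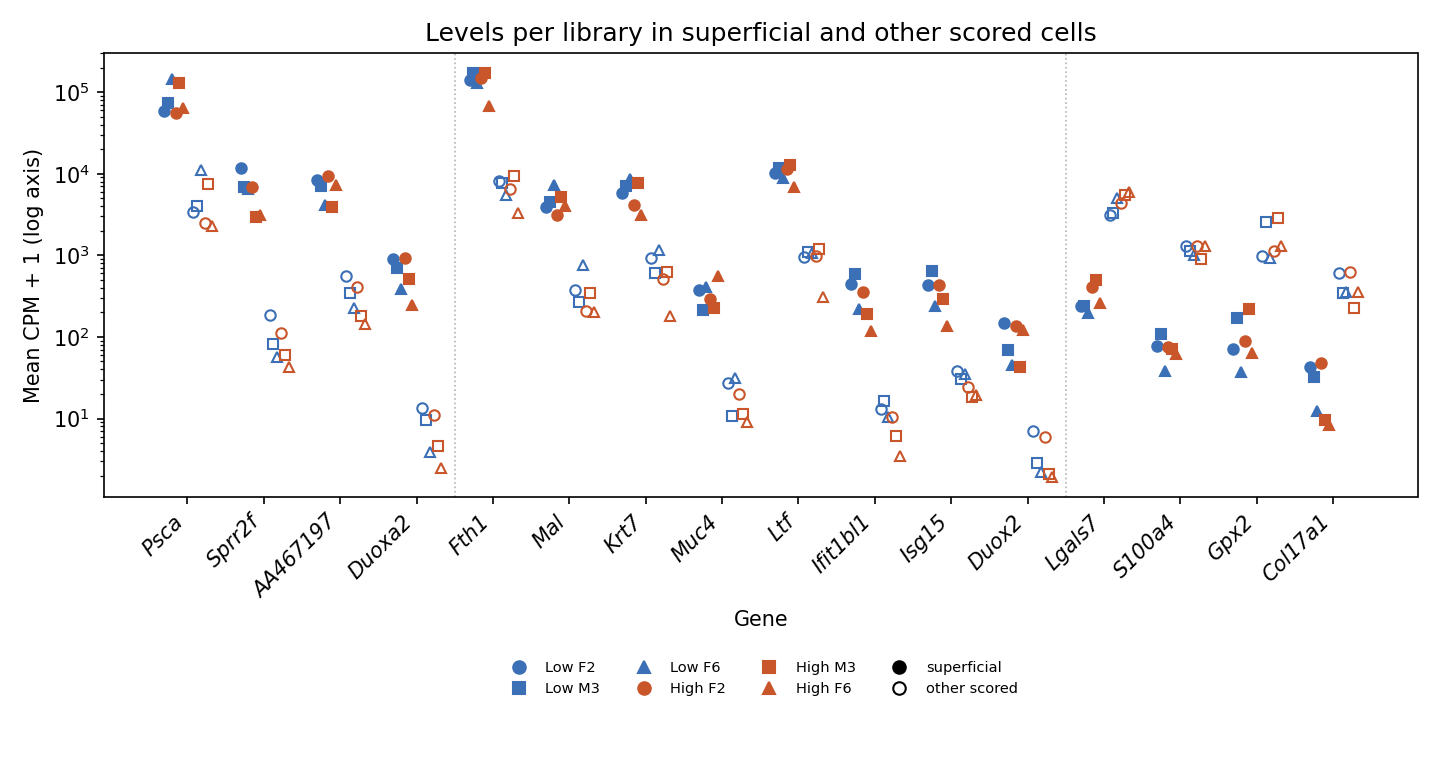
Mean CPM plus 1 on a log axis for 16 genes in each of the 6 libraries, with filled symbols for superficial cells and open symbols for other scored cells. The 4 genes on the left belong to the score, and Lgals7, S100a4, Gpx2 and Col17a1 on the right lay lower in superficial cells in every library.

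The label was checked against surface markers outside the score. Cnfn, cornifelin, a component of the cornified envelope, had a log2 ratio of 3.14 and was higher in 6 of 6 libraries. Against the Il33 cells, described further on, its ratio was 1.93, higher in 6 of 6. Against the cells highest in Calm4, Krtdap and Sprr1b it was only 0.81, higher in 5 of 6, at 518 CPM against 319. Muc1, a membrane mucin, was at 5.48 to 46.6 CPM against a mean of 1.14 in other cells, with a ratio of 1.76. Sprr3 and Cldn4 were higher in 6 of 6 libraries, with ratios of 1.45 and 0.90, though Sprr3 was highest in cells below the cut-off, as the bins along the score show, and Ivl, involucrin, and Krt78 in 5 of 6, with ratios of 0.48 and 0.55. Among the markers of other classes, 12 of 14 immune genes, Ptprc among them, were at 0 in all superficial cells, and the summed level of the basal markers was 688 to 1331 CPM in the median superficial cell against 9718 to 21166 in the median other cell. Ivl and Krt78 were low, at 45.2 and 5.49 CPM on average. Among markers of cornifying cells the mean went the other way for Krtdap and Calm4: Krtdap was at 45.4 CPM on average against 618 in other cells and Calm4 at 2.67 against 34.4. The summed mean level of 5 such markers was 21.9 to 156 CPM in superficial cells and 42.3 to 1892 in other cells. It was 3375 to 6696 in the cells highest in Calm4, Krtdap and Sprr1b, which are among the 5 markers. That last range therefore follows from how those cells were picked. The name superficial is therefore used for the cells picked by the score and not for cornifying cells.

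Outside the score, Fth1 encodes the ferritin heavy chain, which stores iron and oxidizes it. It reached 141777, 170473 and 130650 CPM in Cyto-ID Low F2, M3 and F6 and 149313, 170079 and 68415 in Cyto-ID High, against 3345 (5529 without High F6) to 9264 in other scored cells. The log2 ratio was 4.37 ± 0.17 (SD, n = 6), and every library showed it. The light chain, Ftl1, did not share this: it was lower in 6 of 6 libraries, at 1477 CPM on average against 2261, a ratio of -0.75 that came to -0.09 with TMM factors. Tfrc, the transferrin receptor, was at 2.85 CPM against 21.1. How reads of near-identical copies were counted is not given in the sources used here, so the levels of Fth1, which has processed pseudogenes, and of Sprr2 and Ifit genes are uncertain. Gsto1, a glutathione transferase of the omega class, reached 44400 to 59588 CPM against a mean of 8086, a ratio of 2.74. It was the only 1 of 30 measured detoxification genes past 2-fold upward in 6 of 6 libraries, and 7 were past it downward (Gstm1, Gstp1, Mgst1, Nqo1, Gclm, Ces2g and Cbr2). The list's median was -1.09.

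Genes of the hydrogen peroxide system differed in direction. Duox2, the oxidase that Duoxa2 brings to the surface, was at 147, 69.0 and 44.4 CPM in Cyto-ID Low F2, M3 and F6 and 137, 41.4 and 121 in Cyto-ID High, against 0.929 to 5.95 in other scored cells, a log2 ratio of 2.90 ± 0.58 (SD, n = 6). The paralogous pair was lower in 6 of 6 libraries: Duox1 at 3.06 CPM against 19.7 and its factor Duoxa1 at 9.49 against 25.7. Cyba, the small membrane subunit of other NADPH oxidases, was higher with a ratio of 2.12. Of the enzymes that remove peroxide, Gpx2 was at 36.2 to 218 CPM against 914 to 2869, a ratio of -3.86. Cat, catalase, was past 2-fold lower in 6 of 6 libraries. In all, 2 of 8 measured genes of the list were past 2-fold upward and 2 downward, and its median was -0.23, which turned to 0.19 with TMM factors.

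Of 12 measured Sprr genes outside the score, 3 were past 2-fold upward and none downward, and the median ratio was 1.23. Sprr2d ranged from 7190 to 11517 CPM, Sprr1a from 1638 to 5236 and Sprr2a3 from 949 to 2517. Sprr1b went the other way on average, at 10.8 CPM against 91.4. Of 27 other genes of the cornified envelope, 5 were past 2-fold upward: Cnfn, Crct1, Ppl (periplakin), Scel (sciellin) and Cdsn (corneodesmosin, the glue of shedding cells). Cdsn was at 119 to 294 CPM against a mean of 4.41. Desmosome genes had a median of -0.82 over 12 genes, or -0.27 with TMM factors, and 2 were past 2-fold downward, Dsp (desmoplakin) and Dsc3.

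A few genes of membrane mucins and tight junctions were among the higher ones. Muc4 ranged from 214 to 553 CPM against a mean of 17.4, and Muc20 from 62.4 to 94.1 against 4.06. These were the 2 of 12 mucin genes past 2-fold in 6 of 6 libraries, and the list's median was 1.05. Of 17 claudin and tight junction genes, 4 were past 2-fold upward: Cldn3, Cldn7, Tjp1 (the scaffold ZO-1) and the polarity gene Pard6b. Cldn3 was at 150 (457 without High F6) to 753 CPM against a mean of 56.1. Mal, a lipid raft protein of apical transport, had a ratio of 3.76. Ly6a was the only 1 of 11 measured Ly6 genes outside the score to pass, at 2267 (3893 without High F6) to 5159 CPM against a mean of 891.

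Epithelial serine proteases had a median of 0.86 over 23 genes outside the score, with 5 past 2-fold upward (Prss8, Prss27, Tmprss11e, Tmprss11g and Klk11). Prss27 ranged from 477 to 851 CPM, with a ratio of 3.80, and Prss8 (prostasin) from 78.5 (143 without High F6) to 235, with a ratio of 3.12. Plat, the tissue plasminogen activator, was at 64.4 to 351 CPM against a mean of 3.33. The protease inhibitors were mixed: Wfdc12 and Serpinb11 of 16 genes were past 2-fold upward and Wfdc18, Wfdc2 and Serpinb5 downward, and the median of -0.12 became 0.25 with TMM factors.

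Secreted defence genes included the lactoferrin gene Ltf, whose product binds iron. Ltf was at 10253, 11835 and 8951 CPM in Cyto-ID Low F2, M3 and F6 and 11539, 12747 and 6894 in Cyto-ID High, a log2 ratio of 3.55. Of 24 measured antimicrobial and alarmin genes, 7 were past 2-fold upward (Ltf, S100a7a, Defb14, Pglyrp1, Pglyrp4, Il1a and Il1f6) and 2 downward (S100a9 and Defb1). Il1a, an alarmin cytokine, was at 177 to 816 CPM against a mean of 73.4. The list's median was 0.17.

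Interferon-stimulated genes, which cells switch on when interferon is sensed, formed a further group. Of 23 measured genes, 9 were past 2-fold upward and none downward: Ifit1, Ifit1bl1, Ifit3, Ifit3b, Isg15, Oasl1, Oasl2, Irf7 and Ifi44. The median was 0.61. Ifitm3, also known as interferon-inducible, is not in the list and was lower, at 99.7 CPM against 1307, a ratio of -3.61. Isg15, a ubiquitin-like modifier, was at 431, 647 and 240 CPM in Cyto-ID Low F2, M3 and F6 and 434, 292 and 136 in Cyto-ID High, against 17.6 to 37.3 in other scored cells. Irf7, a transcription factor of the response, ranged from 109 to 215 CPM. Cells differed: the summed level of the list in Low M3 was 283 CPM at the 10th percentile of superficial cells and 7702 at the 90th, with a median of 1477 against 473 in the other cells. This library was highest: over the other 5 libraries the median was 653 (Low F6) to 1333 (Low F2), against 390 and 418 in their other cells, and the 10th percentile was 0 in Low F6, High M3 and High F6.

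The interferon response element, searched on either strand as a pair of TTTC runs with any 2 bases between them, was in the RefSeq windows of Ifit1bl1, Ifit3, Ifit3b and Isg15, 4 of the 5 interferon-stimulated genes among the 30 highest, and in 3.44% of all windows. These genes were listed for their response to interferon, so nothing about these cells is read from that count. As for AP-1, a match does not show that a factor binds there. The 250 bases before the start of Isg15 are printed with the element in capitals, where 3 overlapping matches run together.
Isg15, chr4:156200819-156201068, minus strand: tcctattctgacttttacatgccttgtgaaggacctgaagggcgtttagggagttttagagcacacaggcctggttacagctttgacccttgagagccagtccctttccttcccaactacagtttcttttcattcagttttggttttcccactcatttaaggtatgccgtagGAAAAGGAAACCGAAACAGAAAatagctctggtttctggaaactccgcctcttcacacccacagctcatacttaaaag

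Keratins differed in direction. Krt7 and Krt19, keratins better known from simple epithelia, were past 2-fold upward among 4 such genes, Krt7 at 3148 to 8540 CPM against a mean of 665. Of 19 suprabasal keratins and genes, 3 were past 2-fold upward (Krt23, Krt80 and Aldh1a3, with ratios of 3.29, 1.87 and 1.82) and 2 downward (Krt16 and Krt12), or 4 and 0 with TMM factors, and the median of -0.03 became 0.62. Against the Il33 cells, described further on, 0 were past it upward and 7 downward, with a median of -1.05. Aldh1a3, a gene of this list, was used to pick the Il33 cells, so these values depend partly on that choice. Krt13, the main suprabasal keratin of the esophagus, was higher in 6 of 6 libraries at 7843 CPM against 4392. Krt4 was higher in 5 of 6, at 1100 against 572, and Krt6a in 3 of 6, at 2409 against 2416. Krt16 was at 556 against 1827 and Krt12 at 1.64 against 27.5. Of 25 basal genes, 15 were past 2-fold downward and none upward, and the median was -2.18. Krt14 was at 1213 CPM against 11279 in other cells, and Krt5 stood at 826 against 3679. Col17a1 and Itgb4, parts of the hemidesmosome, were at 24.5 against 417 and 17.1 against 302. Lgals7, galectin 7, had a log2 ratio of -3.89, at 197 to 493 CPM against 3127 to 6045. S100a4 was at -3.89 too.

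Of 47 transcription factors of differentiation, 3 were past 2-fold upward (Elf3, Maff and Hopx) and 4 downward, Cebpa and Pitx1 among them. Elf3, an epithelial ETS factor, ranged from 682 to 1014 CPM against a mean of 128. Hopx, an atypical homeodomain protein, ranged from 460 to 3195 CPM (1212 without High F6). The study's dye reads autophagic vesicles, so the autophagy machinery was read as well. Of 43 genes, 3 were past 2-fold upward: Map1lc3b (an LC3 gene) at 890 to 1852 CPM against a mean of 395, Gabarapl2 at 330 to 497 against 141 and the cargo receptor Sqstm1 at 231 to 391 against 89.4. The list's median was -0.09 and became 0.34 with TMM factors. Of 31 lysosome genes, 3 were past 2-fold downward (Ctsz, Ctsc and Cd63), and the median was 0.04. Over all 11848 genes, TMM factors moved the counts from 180 to 380 higher and from 719 to 250 lower, and the lists moved along. With TMM factors fewer genes were past 2-fold downward: 11 of the basal genes, 3 of the detoxification genes, 1 each of the desmosome and lysosome genes, and 0 of the transcription factors and of the antimicrobial genes. More were past 2-fold upward: 6 of the 12 Sprr genes, 7 of the 27 other cornified envelope genes, 4 of the 12 mucins, 7 of the 23 serine proteases, 6 of the 43 autophagy genes, 5 of the 47 transcription factors and 2 of the 31 lysosome genes, while the interferon-stimulated genes stayed at 9 of 23. Without High F6 the counts over all genes were 192 higher and 908 lower. The downward counts were then 6 for the transcription factors, 3 for the desmosome genes, 3 for the peroxide genes, 16 for the basal genes and 1 for the serine proteases, and the upward count of the tight junction genes was 5.

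**Figure D2:**
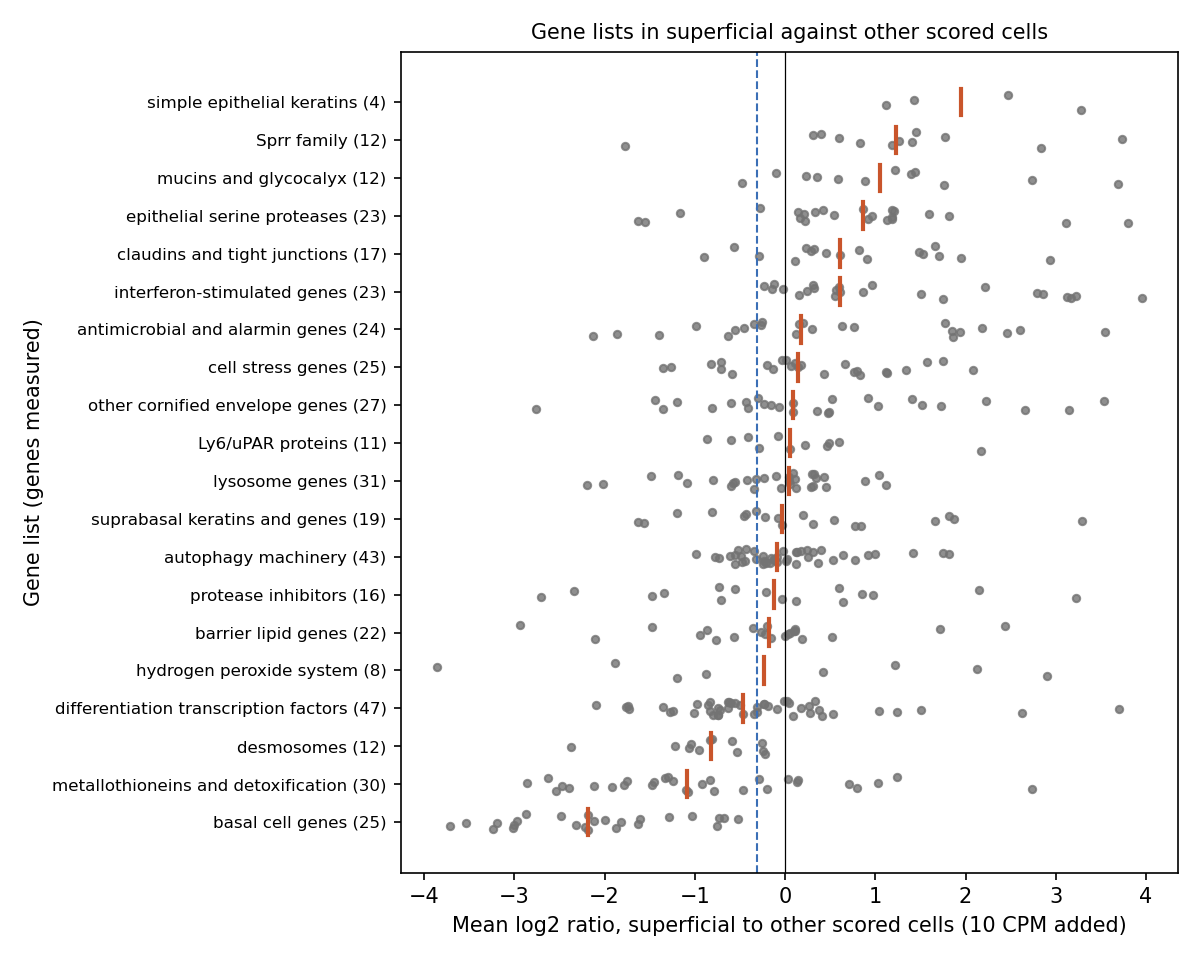
Each point is the mean log2 ratio over 6 libraries of 1 measured gene of a list, superficial against other scored cells, and the red bar is the list's median. The dashed line is the median of all 11848 measured genes, -0.31, and the basal genes (median -2.18) lie lowest.

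Along the score, cells were placed in 8 bins, of which the last 3 hold the superficial cells. Krt14 averaged 12058 CPM in the first bin and 561 in the last. Krt13 was highest in the fourth bin, at 14169, and was at 6168 in the last, and Il33 went from 60.2 to 564 and back to 39.6. Alox15 was likewise highest in the fourth bin, at 698, and at 59.5 in the last. Krt20 was highest later, at 796 in the fifth, and at 335 in the last against 50.4 in the first. Sprr3 averaged 335 CPM in the fifth bin, its highest, close to 310 in the fourth, and 261, 157 and 79.5 in the 3 superficial bins. Libraries differed widely, from 126 to 1073 CPM in the fifth bin, so which bin was highest is uncertain. Krt4 and Krt6a were at 1527 and 3220 in the first superficial bin and at 704 and 1472 in the last. Psca, Sprr2f and the other genes of the score increase along it by construction. Fth1, not part of the score, went from 2684 CPM in the first bin to 59648 in the fifth and 204280 in the last, Krt7 from 371 to 7870 and Isg15 from 16.7 to 629. The last bin averages 5 libraries and the earlier ones 6. Median mitochondrial UMIs moved with the bins, from 2.39% to 0.657%, and the median depth from 3789.5 to 8434 UMIs. Their part in these courses was not tested.

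**Figure D3:**
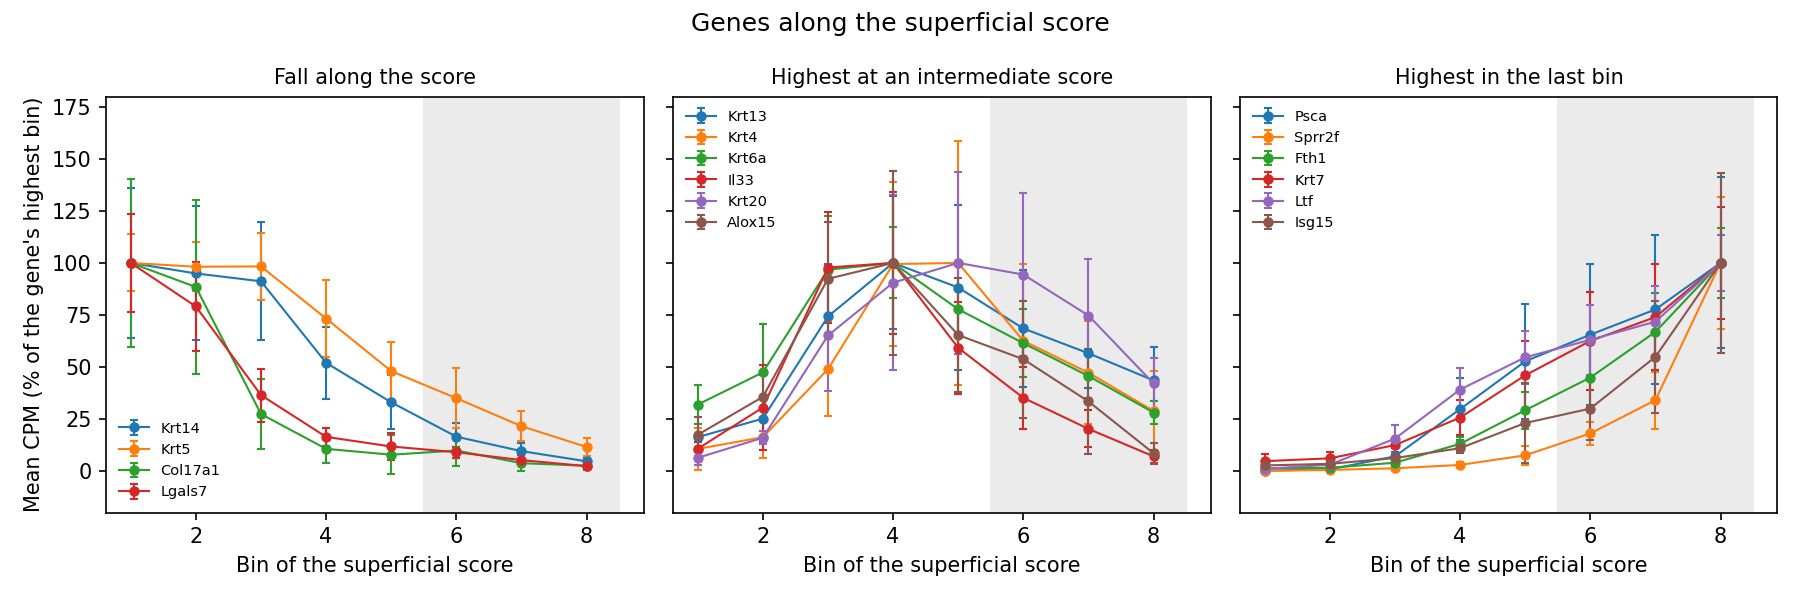
Mean CPM over libraries, as a percentage of the gene's highest bin, in 8 bins of the superficial score, with bars of 1 SD over the libraries that had enough cells and the bins of superficial cells shaded. Krt14 falls from the first bin, Krt13 and Il33 are highest in the fourth, and Fth1 and Isg15 are highest in the last.

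Superficial cells were set beside the differentiated states that shared some of their genes. Among the 2253 scored cells highest in Il33, Aldh1a3, Aldh1a7 and Krt20, 513 (22.8%) were also superficial, and among the 2253 highest in Calm4, Krtdap and Sprr1b, 14 (0.621%). The shared cells were left out of these comparison cells but kept among the superficial cells. On that footing, 58 genes (0.49%) were at least 2-fold higher in superficial cells than in the Il33 cells in 6 of 6 libraries and 130 (1.1%) lower. Against the Calm4 cells, 219 (1.85%) were higher and 383 (3.23%) lower. Leaving out cells above the cut-off keeps the score low in the comparison cells. The ratios of its 8 genes, all among the higher ones in both comparisons, are therefore partly fixed by the rule. Ratios of other genes that moved along the score, Fth1 and Isg15 among them, and the gene counts depend partly on it too. How far they do was not tested. Psca was at 24344 CPM in the Il33 cells, so its ratio there was 1.93, while Sprr2f, at 180 CPM in them, had a ratio of 5.19. Fth1 had a ratio of 3.33 against the Il33 cells. Of the 23 interferon-stimulated genes, 7 were past 2-fold upward against the Il33 cells (median 0.75). The upward counts of other lists were 0 of 12 Sprr genes (median 0.09) and 0 of 17 tight junction genes (median -0.11). They were 1 of 27 other cornified envelope genes (median -0.27, with 3 downward) and 2 of 8 peroxide genes (median -0.32, with 1 downward). For mucins they were 2 of 12 (median 0.14), for serine proteases 2 of 23 (median 0.19). For antimicrobial genes they were 2 of 24 (median 0.13, with 1 downward). Over all genes 0.49% were upward and the median was -0.16. Arg1, arginase, at 4815 to 7181 CPM in superficial cells, had a ratio of -0.08 against the Il33 cells.

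The share of superficial cells was compared between the founder groups. It was 23.1% (95% Wilson interval 21.7 to 24.6), 8.52% (7.78 to 9.33) and 11.02% (9.87 to 12.3) in Cyto-ID Low F2, M3 and F6, and 11.3% (10.3 to 12.3), 7.29% (6.53 to 8.13) and 2.03% (1.63 to 2.52) in Cyto-ID High F2, M3 and F6. Low F2 was highest and High F6 lowest, and the groups overlapped. The means were 14.2% ± 7.82 and 6.87% ± 4.64 (SD, n = 3 each), a difference of -7.36 percentage points (two-sided exact permutation test, p = 0.30, where the smallest p the design allows is 0.10). The share was lower in Cyto-ID High in 3 of 3 like-labelled libraries, and in 2 of 3 when at least 1000 genes per cell were required, where M3 had 6.53% in Low and 7.41% in High. Without Low F2 the difference was -2.90, and without High F6 -4.94. The difference did not exceed the spread between libraries. Intervals cover counting error only.

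**Figure D4:**
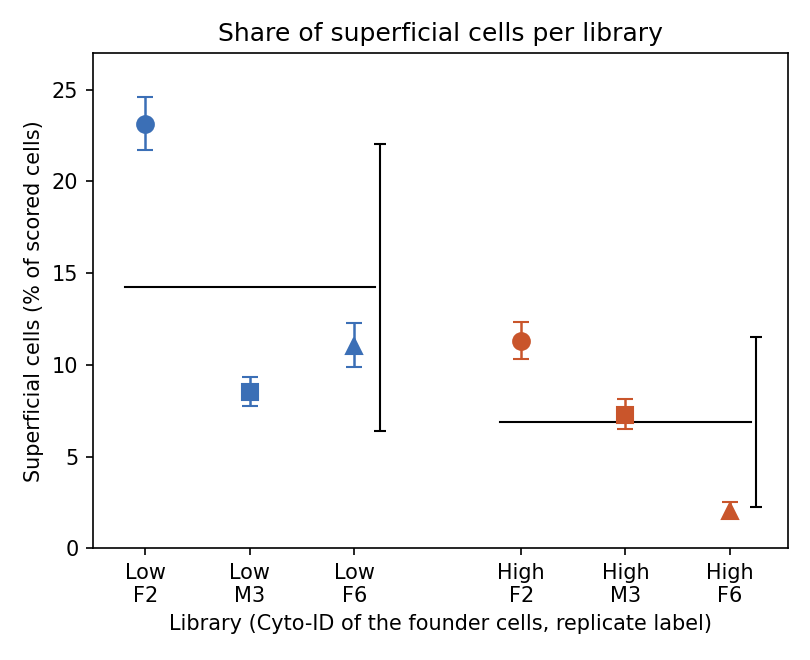
Share of superficial cells among scored cells in each library, with 95% Wilson intervals, and each group's mean (black line) with a bar of 1 SD. Cyto-ID Low F2 reaches 23.1% and Cyto-ID High F6 2.03%, and the other 4 libraries lie between 7.29% and 11.3%.

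Within superficial cells, no gene passed between Cyto-ID High and Low. Limma with Benjamini-Hochberg adjustment called 0 of 10026 genes (0%), 133 had an unadjusted p under 0.05, and the median log2 difference over all genes was -0.18, or -0.02 without High F6. In 612 genes (6.1%) the CPM of the 2 groups did not overlap. By the rule for named genes, the smallest p-values are given. Dusp1, an early-response phosphatase of MAP kinases, was at 290, 279 and 223 CPM in Cyto-ID Low F2, M3 and F6 and 622, 501 and 794 in Cyto-ID High. The High libraries were all above the Low ones, with a log2 difference of 1.11 ± 0.26 (SE; limma, adjusted p = 0.972). Krtdap, a gene of keratinocyte differentiation, was at 5.56, 18.0 and 17.3 CPM in Cyto-ID Low and 71.2, 113.9 and 46.5 in Cyto-ID High, without overlap, a log2 difference of 2.33 ± 0.58 (SE). In the other scored cells Krtdap was at 30.5 to 129 CPM in Low and 906 to 1606 in High. The part of free RNA in its superficial levels was not tested. Cdkn2a, Lcn2 and Fxyd4 had log2 differences of 1.57, 1.90 and 1.12. With at least 1000 genes per cell Lcn2 turned to -0.036 and Dusp1 came to 0.43, but High F6 then held only 6 superficial cells. Downward, Wfdc12 was at 225, 175 and 169 CPM in Cyto-ID Low and 115, 39.6 and 94.2 in Cyto-ID High, a log2 difference of -1.45 ± 0.33 (SE). Cdkn1b, which encodes the CDK inhibitor p27, Hist1h1e, Serpinb1a and Epb41 had differences of -1.18, -1.63, -0.99 and -1.38. The groups overlapped for Hist1h1e and Epb41. In High F6, Cdkn1b, Hist1h1e and Epb41 were at 21.2, 11.6 and 5.80 CPM and Cdkn2a at 20.8, so these values rest on few UMIs. Without High F6, 1 gene passed: Mt4, a metallothionein of squamous epithelia, at 1.14 and 0.35 CPM in Low F2 and M3 and 53.5 and 72.3 in High F2 and M3, with a log2 difference of 5.54 (limma, adjusted p = 0.00102). With all 6 libraries the log2 difference of Mt4 was 3.53 ± 1.36 (SE; limma, adjusted p = 0.972). Mt4 was at 0 in the superficial cells of both F6 libraries, where 3 UMIs would be 2.10 CPM in Low F6 and 20.2 CPM in High F6.

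No test between the groups is given for the 8 genes of the score, because their values chose the cells. For Fth1 the log2 difference was -0.43 ± 1.44 (SE), with overlapping groups. This SE is limma's moderated one, drawn towards the trend over genes, and is not the spread of Fth1 alone. The autophagy list had a median difference of -0.20 over 43 genes and the interferon list -0.30 over 21, beside -0.18 over all genes, and 0 of each passed.

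In the other scored cells, 15 of 11848 genes (0.127%) passed, all 15 higher in Cyto-ID High: Tubb3, Mt3, Igfbp2, Capns2, Dsg1b, Tnfrsf19, Krtdap, Calm4, Otop2, Gsdmc, Ces1h, Mt4, Sprr1b, Gdpd2 and Stfa2. The count was 0 without the filter on low genes, 5 with a pseudocount of 0.1 CPM, 6 without High F6, 5 without Low F6, 4 without High F2 and 27 without High M3, of which 3 were lower. With the replicate block it was 72, of which 6 were lower. Both comparisons rest on the same 6 libraries. Krtdap had a log2 difference of 4.23 ± 0.46 (SE) there and 2.33 in superficial cells. Calm4 had 3.92 there and 0.99 ± 0.86 in superficial cells, in which it stayed at or below 8.34 CPM. Of the 15 genes, 8 were too low in superficial cells to be tested. The test of the difference between the 2 effects called 0 of 11848 genes (0%), with 446 at an unadjusted p under 0.05, so no gene's Cyto-ID difference was shown to depend on the cell state. Its smallest p belonged to Dmkn, dermokine, chosen for this after its values were seen, with a log2 difference of -0.29 in superficial and 0.98 in other scored cells (limma, adjusted p of the difference 0.443).

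**Figure D5:**
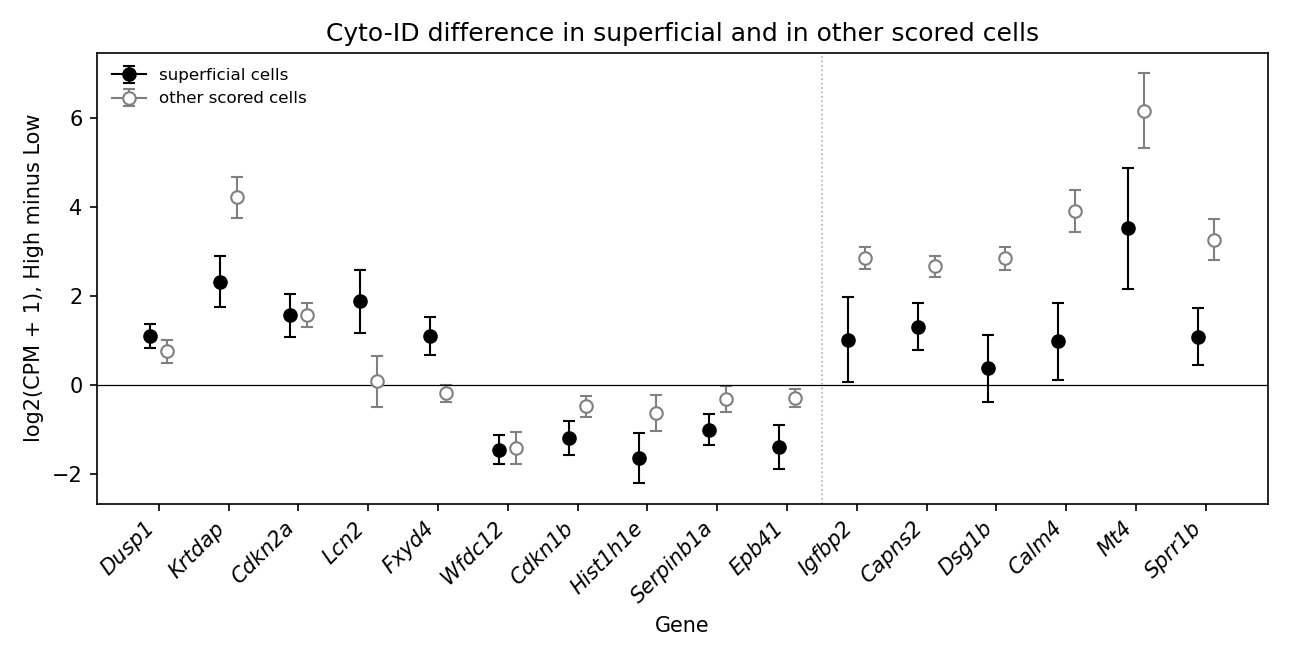
Log2 difference of Cyto-ID High minus Low with its moderated standard error from limma for 16 genes, in superficial cells (black) and other scored cells (white). Left of the dotted line are the genes with the smallest p within superficial cells, none of which passed, and right of it genes that passed in the other cells, where Mt4 reached 6.17.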

How the data were processed

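The authors deposited 1 table per library with the natural log of 1 plus 10000 times each gene's share of a cell's UMIs. This unit was read from the values, and 100% of the values gave whole UMIs (tolerance 1e-06). Cell Ranger 6.0.0, Seurat 4 and the builds mm10 and GRCm38 are named per the submitters' processing notes. The annotation and cell filter are not given in the sources used here. No doublet caller was run and no doublets were removed. The members and gene lists were chosen with earlier results of these data known. Per library, each gene's CPM was the mean over cells. For tests it was scaled by TMM factors (30% of ratios and 5% of levels trimmed) and analysed as log2(CPM + 1), which understates changes of low genes. Genes with at least 1 CPM in 3 libraries entered limma 3.58.1 (R 4.3.3) with a mean-variance trend and Benjamini-Hochberg adjustment at 0.05, without a replicate block. Each SE of a log2 difference is limma's moderated standard error, drawn towards the mean-variance trend, and not the gene's own spread alone. Ratios of superficial to other cells used plain CPM. Named genes were the 8 of the score, the 30 highest and 10 lowest by ratio (the same direction in 6 of 6 libraries for both, and at least 20 CPM in superficial cells for the highest), in the Cyto-ID comparison the 5 smallest p each way at a mean of at least 10 CPM, and genes of described lists; Ftl1, Tfrc, Arg1, Dmkn and Alox15 were chosen after their values were seen. Superficial cells held 148163 (Cyto-ID High F6) to 8460417 UMIs per library, and at least 1422361 in the other 5. The limma fit, the thinning, the TMM factors and the permutation test were tested on simulated data. Shares carry 95% Wilson intervals.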

Additional observations from a re-analysis of the deposited data

Results flagged for a closer look

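2 kinds of barcodes outside the comparisons also carried the superficial genes. Of 1637 non-mitotic barcodes with under 500 detected genes, 286 were at or above the score cut-off, from 8.39% in Cyto-ID High F6 to 51.5% in Cyto-ID Low F2. Of the 2627 cells left out as mitotic, 33 were at or above it.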

How the results depend on the processing

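The difference in the share of superficial cells kept its sign under all 14 alternatives, from -2.90 without Cyto-ID Low F2 to -11.5 at the 80th percentile. Without a minimum of genes per cell, an alternative chosen after seeing the data, it was -7.65. With the replicate block (exact sign-flip test, p = 0.25, the smallest it can give) it was -7.36. Within superficial cells the count of genes that passed was 0 in every alternative, the block included, except when 1 library was left out, where it ran from 0 to 1 (Mt4, without Cyto-ID High F6). The test of the difference between effects called 0 in all, the block included. In the other scored cells the count, 15, was 27 at the 80th percentile, 5 with a pseudocount of 0.1 CPM, 0 without the filter on low genes, 24 with plain CPM, 72 with the replicate block (6 of them lower) and 4 to 27 when 1 library was left out (4 without High F2, 5 without Low F6, 6 without High F6 and 27 without High M3, 3 of them lower). Whether the labels pair the libraries was checked in superficial cells: deviations from group means gave like-labelled correlations of 0.42 (F2), 0.40 (M3) and 0.09 (F6). Those of unlike labels ran from -0.46 to 0.11, the highest between High F6 and Low F2. Like labels thus went together for F2 and M3, and not clearly for F6. The main tests were set without pairs, and results with the replicate block are given beside them. The counts of genes at least 2-fold higher and lower moved to 380 and 250 with TMM factors over both sets of cells, and the lower count to 422 at the 80th percentile. Of 576 ratios of named genes under the alternatives none changed sign, and 93 moved by more than the SD between libraries. Leaving out 1 library could not change a sign, because these genes had the same direction in 6 of 6 libraries. The Cyto-ID difference of Lcn2 within superficial cells changed sign, to -0.036, with at least 1000 genes per cell, where High F6 held 6 superficial cells. The cause was not tested for any of these. Depth limits Cyto-ID High F6 most, where 3 UMIs over its superficial cells were 20.2 CPM.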

Other observations

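Itgam, the integrin alpha M chain known from myeloid cells, was the 1 gene measured among 14 immune markers. It was at 19.9, 8.15 and 29.3 CPM in superficial cells of Cyto-ID Low F2, M3 and F6 and 41.4, 10.8 and 41.2 in Cyto-ID High F2, M3 and F6, against 0.307 to 1.97 in other scored cells. Its log2 ratio was 1.60 ± 0.60 (SD, n = 6) and was above 0 in 6 of 6 libraries. Ptprc, the leukocyte marker CD45, and Cd3e, Cd79a, Lyz2, Adgre1 and Cd74 were at 0 in superficial cells of all libraries.

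The neutral lipid enzyme Dgat2 and the steroid enzyme Hsd17b2 were higher in superficial cells in 6 of 6 libraries, with log2 ratios of 2.44 and 1.72. They were the only 2 of 22 measured barrier lipid genes past 2-fold upward. Another 3 were past it downward (Alox12, Scd1 and Fabp5), and the list's median was -0.17. Fabp5, a fatty acid binding protein, was at 1595 CPM against 12500. The hypoxia and lipid droplet gene Hilpda was at 221 to 604 CPM against a mean of 25.1, and BC037156, which RefSeq also lists as FDC-SP, ranged widely, from 906 to 10943 CPM, with the highest value in Cyto-ID High F6 (5877 without it).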
